A study of Mus musculus with 6 samples.

Results

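The interleukin 6 family was followed in UV2237M tumours, a murine fibrosarcoma (a cancer of connective tissue), after gold nanoclusters and near-infrared light. The 10 genes were taken by symbol from a table of 23183 symbols. They were the ligands *Osm*, *Lif*, *Il6*, *Il11* and *Clcf1*, the receptor chains *Osmr*, *Lifr*, *Il6st* and *Il6ra*, and the feedback inhibitor *Socs3*. All 10 symbols were in each library's table, and 9 of them passed the filter on low counts, among 12517 genes that did. The 3 untreated tumours had no treatment. The 3 treated tumours received gold nanoclusters (GNC, gold particles that turn light into heat) on day 1 and day 7 with near-infrared (NIR) irradiation. All 6 carry the label WT for genotype. No group had GNC or NIR alone, so the parts of the treatment cannot be told apart. The labels state neither when the tumours were collected nor whether each was taken from an animal of its own, and the p-values then measure only the spread between these samples, which may be technical.

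Cytokines of this family signal through *Il6st*, which codes for the shared chain gp130, paired with a second chain that sets which ligand is read. Oncostatin M (*Osm*) uses gp130 with the oncostatin M receptor (*Osmr*), leukaemia inhibitory factor (*Lif*) uses it with *Lifr*, and interleukin 6 and interleukin 11 first bind their own receptors (*Il6ra*, *Il11ra1*). The bound receptor switches on JAK kinases and the transcription factor STAT3, which induces *Socs3*, and the SOCS3 protein binds gp130 and shuts the signal off. In tumours the ligands come from myeloid cells, fibroblasts and the tumour cells themselves.

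The family contains 2 pairs of neighbours in the genome. In GENCODE M21 on mm10, *Osm* (chromosome 11, 4236420 to 4241026) and *Lif* (chromosome 11, 4257557 to 4272514) lie on the same strand with 16530 bases and 0 protein-coding genes between them. The receptor genes *Osmr* (chromosome 15, 6813577 to 6874969) and *Lifr* (chromosome 15, 7090614 to 7197489) lie on opposite strands with 215644 bases and 0 protein-coding genes between them. The others are *Il6* (chromosome 5, 30013114 to 30019981), *Il11* (chromosome 7, 4772373 to 4782859), *Clcf1* (chromosome 19, 4214238 to 4223490), *Il6st* (chromosome 13, 112464070 to 112510086), *Il6ra* (chromosome 3, 89864059 to 89913196) and *Socs3* (chromosome 11, 117966079 to 117970047). All 10 are protein-coding, and reads were summed over the gene. Exons of *Clcf1* share 311 bases with another protein-coding gene model on the same strand and those of *Il6ra* share 242 bases with an antisense gene, and since the strand setting of the counting is not given, reads there could be shared.

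Sequence before the start site is shown for the ligands whose window held the AP-1 motif. The windows shown were picked for that match, and a link between the motif and the ligand levels was not tested. RefSeq windows on GRCm38.p6 were used for 8 of the 10 genes, with 10 windows in all, and *Osm* and *Clcf1* were not searched. The 250 bases before each start were searched on both strands for AP-1 (TGANTCA), CRE (TGACGTCA), STAT (TTCNNNGAA), the kappaB motif and the CArG motif. AP-1 was found in *Lif* (chr11:4257318-4257556, plus strand, less 11 bases that are exon in GENCODE), in *Il6* (chr5:30012864-30013113, plus strand) and in 1 of the 2 windows of *Il11* (chr7:4778142-4778391, minus strand, within an intron of the longer gene model). Capitals mark AP-1 and kappaB matches, which do not overlap.
Lif: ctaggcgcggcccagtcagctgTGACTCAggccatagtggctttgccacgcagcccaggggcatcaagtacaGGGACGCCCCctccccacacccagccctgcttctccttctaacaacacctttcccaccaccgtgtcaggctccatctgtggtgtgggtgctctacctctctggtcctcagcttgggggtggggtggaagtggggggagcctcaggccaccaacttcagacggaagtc
Il6: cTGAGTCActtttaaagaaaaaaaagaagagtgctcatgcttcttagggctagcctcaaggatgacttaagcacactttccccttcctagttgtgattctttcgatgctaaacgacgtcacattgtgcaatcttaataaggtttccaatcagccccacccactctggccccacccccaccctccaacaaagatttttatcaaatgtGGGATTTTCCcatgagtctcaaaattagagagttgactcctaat
Il11: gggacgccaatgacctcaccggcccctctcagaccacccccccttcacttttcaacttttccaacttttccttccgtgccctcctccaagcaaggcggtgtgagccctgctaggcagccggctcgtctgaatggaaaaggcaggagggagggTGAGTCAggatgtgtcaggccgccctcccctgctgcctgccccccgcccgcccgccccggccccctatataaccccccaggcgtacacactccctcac

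The AP-1 match begins 228 bases before the start in *Lif*, 249 in *Il6* and 98 in *Il11*. The kappaB match begins 178 bases before the start in *Lif* and 44 in *Il6*. The window of *Socs3* (chr11:117969367-117969616, minus strand) held a STAT match 154 bases before its RefSeq start. The windows of *Osmr*, *Lifr*, *Il6st* and *Il6ra* held none of the motifs. Those of *Socs3*, *Osmr* and *Lifr* lie inside the GENCODE genes given above, downstream of their outermost start, so they can hold transcribed sequence. Of 32851 windows of the same length in the RefSeq table, 6.75% held AP-1, 7.25% kappaB, 7.02% STAT, 1.55% CRE and 1.47% CArG. A match is a run of letters and not a measured site of binding.

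Total counts lay between 4680295 and 8019294 per library. Untreated 2, the least deep library, stood apart, with a mean distance of 1.25 to the others on the log2 CPM scale against 0.634 to 0.755, where CPM are counts for every 1000000 reads of the scaled library size. Its deviations ran against the GC content of the transcripts (Spearman's rho -0.469 across genes, which are not independent replicates), and those of the other libraries ran with it (0.214 to 0.325). *Vim* and *Col3a1*, genes of connective tissue cells, had 2931 to 3909 and 12570 to 22446 CPM over the 6 libraries, while *Col1a1* had 59.4 CPM in untreated 2 and 1975 to 4255 in the others. Values without untreated 2 are given beside the fold changes and list counts it moved most.

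All 5 ligands and *Socs3* had higher levels in each treated tumour than in any untreated one, while the 4 receptor chains overlapped between the groups. Among the 9 tested members, so without *Il6*, 5 lay apart in that direction and 0 in the other, where 10.6% and 10.2% of the 12517 tested genes did. *Osm* and *Il11* are in this count and those below, and both passed the filter only through the treated group. *Osm* had a mean of 1.18 ± 0.688 CPM over the untreated libraries and 5.11 ± 2.52 over the treated (SD, n = 3), the largest log2 fold change of the 9 tested members. No gene of the family passed edgeR's quasi-likelihood test at an adjusted p under 0.05 over all tested genes, as no gene in the whole table did (0 of 12517, percent called 0). At an unadjusted p under 0.05, 5 members were higher and 0 lower, against 3.32% of tested genes higher and 4.85% lower. With a filter at a mean of at least 5 CPM, which left out *Osm* and *Il11*, 3 of 7 members had such a p in edgeR, against 922 of 10907 genes. The log2 fold change was above 0 in 9 of 9 tested members (49.9% of all tested genes). Without untreated 2 it was above 0 in 8 of 9 (50.2%), an unadjusted p under 0.05 was reached by 6, all higher (9.71%, and 9% lower), and 6 of the 9 lay apart in the higher direction (19.7%, and 19.9% in the other). With GC and length offsets 8 of 9 were above 0 (47.9%). An exact permutation test of 3 against 3 tumours cannot give a p under 0.1. DESeq2 called 57 genes (0.455%), 18 of them higher (0.144%), and limma-voom 0 (946 at an unadjusted p under 0.05), in both cases 0 of the family. *Il11* received no adjusted p from DESeq2.

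**Figure D1:**
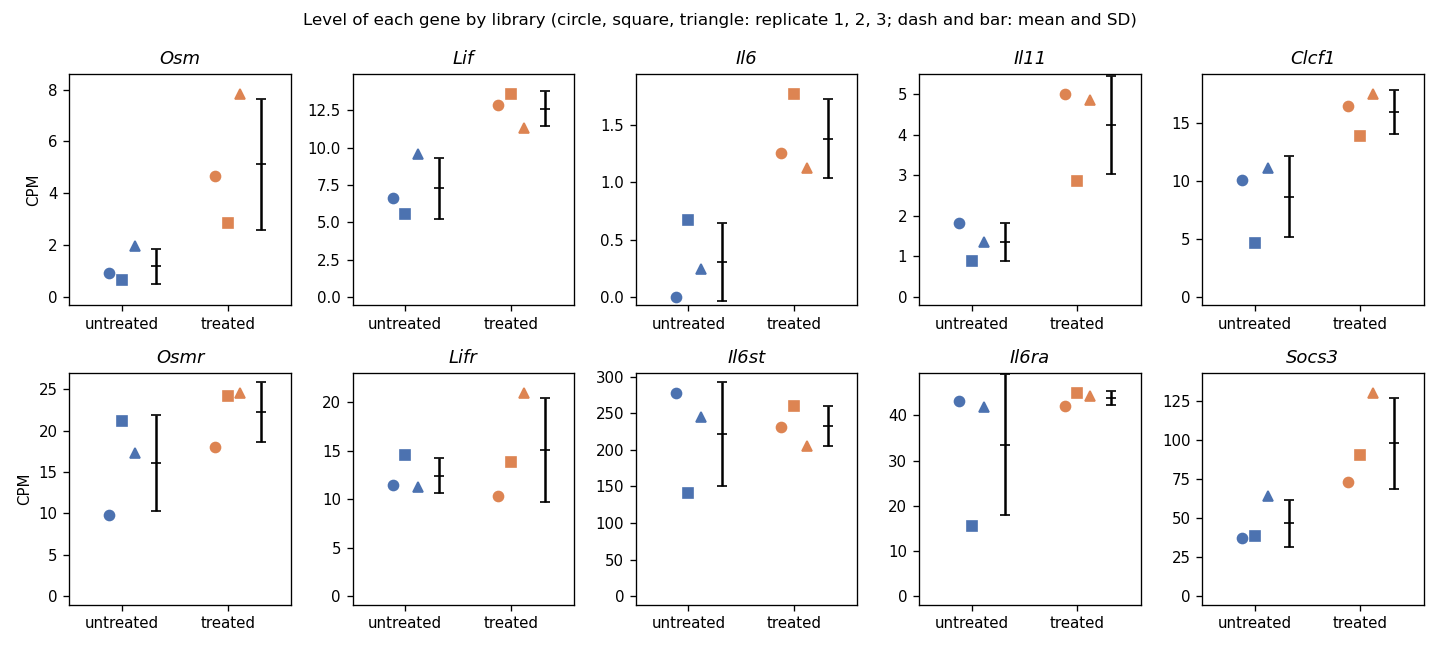
Level of each gene in CPM (vertical axis from just below 0) in 3 untreated (blue) and 3 treated (orange) tumours, 1 symbol per library, with the mean and SD beside each group. The treated points of *Osm*, *Lif*, *Il6*, *Il11*, *Clcf1* and *Socs3* lie above all untreated points, and the groups of *Osmr*, *Lifr*, *Il6st* and *Il6ra* overlap.

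*Osm*, which is made mainly by activated myeloid cells, had levels of 0.908, 0.669 and 1.96 CPM in untreated tumours 1, 2 and 3, while treated tumours 1, 2 and 3 had 4.65, 2.86 and 7.83 CPM. The lowest treated tumour thus lay above the highest untreated one, untreated 3. The counts behind these values were 6, 3 and 16 reads against 26, 21 and 63. The log2 fold change of treated over untreated was 2.04 ± 0.57 (SE), rank 48 of 12517 from the top, with an adjusted p of 0.592 in edgeR. Since *Osm* passed the filter only through its treated level, this rank is not independent of that level. It was 1.59 without treated 3 and 2.65 without untreated 3.

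*Il11*, a cytokine of fibroblasts and other stromal cells, had 1.82, 0.893 and 1.35 CPM in the untreated tumours and 5.01, 2.86 and 4.85 CPM in the treated ones. Treated 1 and 3 were close to each other and treated 2 was lower, as it was for *Osm*. The log2 fold change was 1.61 ± 0.43 (SE), rank 121, with an adjusted p of 0.592 in edgeR. *Osm* reached the cutoff of the filter, 1.44 CPM, in 1 untreated and 3 treated libraries, and so did *Il11*. Both therefore entered the test through the treated group, where they were high.

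*Lif*, known for holding stem cells undifferentiated and for its action on muscle and fat in tumour-bearing animals, had 6.66, 5.58 and 9.57 CPM in the untreated tumours and 12.9, 13.6 and 11.3 CPM in the treated ones. Its treated values were closely spaced, and the gap between the groups was that between untreated 3 and treated 3. The log2 fold change was 0.78 ± 0.28 (SE), with an adjusted p of 0.592 in edgeR. *Clcf1*, which codes for a ligand of the ciliary neurotrophic factor receptor, had 10.1, 4.69 and 11.2 CPM in the untreated tumours and 16.4, 13.9 and 17.5 CPM in the treated ones. Untreated 2 was the low value, and the log2 fold change of 0.86 ± 0.35 (SE, adjusted p 0.592 in edgeR) was 0.57 ± 0.20 without it.

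*Il6* itself was the least abundant member and did not pass the filter. It had 0, 3 and 2 reads in untreated 1, 2 and 3 and 7, 13 and 9 reads in treated 1, 2 and 3, or 0, 0.669 and 0.245 CPM against 1.25, 1.77 and 1.119 CPM. A count of 0 in untreated 1 allows a level of up to 0.454 CPM (3 counts). Summed over each group, 29 reads stood against 5, a rate ratio of 5.32 with an exact 95% interval of 2.04 to 17.6, which covers counting error only and not the spread between tumours. With no filter edgeR gave *Il6* an adjusted p of 0.623.

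*Socs3*, the feedback inhibitor, had 37.7, 38.4 and 64.0 CPM in the untreated tumours and 73.3, 90.5 and 130.1 CPM in the treated ones. Untreated 3 came closest to the treated range, as it did for *Osm*, *Lif* and *Clcf1*. The untreated mean was 46.7 ± 15.02 CPM and the treated mean 97.9 ± 29.1 CPM (SD, n = 3), and the log2 fold change was 1.07 ± 0.32 (SE), rank 296, with an adjusted p of 0.592 in edgeR. Without untreated 2 DESeq2 called it, at an adjusted p of 0.0480 and a log2 fold change of 0.94. That fit called 278 genes (2.22%), 116 of them higher (0.927%), and 1 of the 9 tested family genes. EdgeR on the same 5 libraries gave *Socs3* an adjusted p of 0.222.

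Of the receptor chains, *Osmr* had 9.83, 21.2 and 17.3 CPM in the untreated tumours and 18.1, 24.2 and 24.5 CPM in the treated ones. Untreated 2 lay above treated 1, so the groups overlapped, and untreated 1 was the low value. The log2 fold change was 0.47 ± 0.32 (SE, adjusted p 0.638 in edgeR). Without untreated 2 the groups of *Osmr* no longer overlapped, as in 19.7% of tested genes in that direction, and the log2 fold change was 0.70 ± 0.27 (adjusted p 0.243).

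*Lifr* had 11.5, 14.5 and 11.3 CPM in the untreated tumours and 10.4, 13.9 and 20.9 CPM in the treated ones. Only treated 3 lay above the untreated range, and the log2 fold change of 0.28 ± 0.31 (SE, adjusted p 0.746 in edgeR) became -0.03 without treated 3. The same tumour had the highest skeletal muscle markers, 314.3 summed CPM over 5 genes against 2.31 to 70.8 in the others, and their part in the level of *Lifr* was not tested.

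*Il6st*, the shared chain, had 277.1, 141.5 and 245.3 CPM in the untreated tumours and 231.2, 259.9 and 205.1 CPM in the treated ones. Its log2 fold change was 0.07 ± 0.29 (SE, adjusted p 0.940 in edgeR) and turned to -0.18 ± 0.13 without untreated 2. *Il6ra*, the binding chain for interleukin 6, had 43.3, 15.6 and 41.8 CPM in the untreated tumours and 42.0, 44.9 and 44.4 CPM in the treated ones. Untreated 2 alone was low, and the log2 fold change of 0.38 ± 0.37 (SE, adjusted p 0.724 in edgeR) was 0.04 ± 0.12 without it.

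Untreated 2 was the lowest library for 6 of the 10 genes. With GC content and length as offsets in edgeR the log2 fold change was 0.83 for *Socs3*, 1.96 for *Osm* and -0.08 for *Il6st*.

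**Figure D2:**
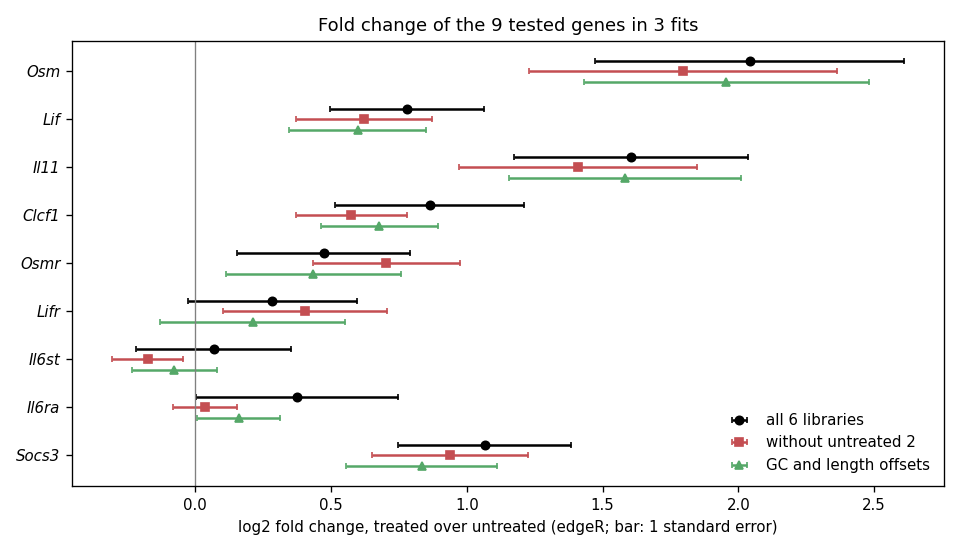
Log2 fold change of treated over untreated tumours (horizontal axis, bars 1 SE) for the 9 tested genes with all 6 libraries (black), without untreated 2 (red) and with GC and length offsets (green). *Osm*, *Il11* and *Socs3* lie furthest to the right in each fit, from 0.83 to 2.04, and *Il6st* lies on both sides of 0.

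Levels of different genes were compared per kb of the longest transcript. In untreated tumours *Il6st* (25.5 ± 8.17 CPM per kb, SD, n = 3) and *Socs3* (18.3 ± 5.89) led and overlapped each other. They were followed after a gap by *Il6ra* (3.89 ± 1.80), *Osmr* (2.93 ± 1.05), *Clcf1* (2.44 ± 0.980), *Lif* (1.81 ± 0.513) and *Lifr* (1.29 ± 0.187), each overlapping the next. *Il11* (0.694 ± 0.237) and *Osm* (0.519 ± 0.303) overlapped each other below these, and *Il6* (0.130 ± 0.145) was last. In treated tumours *Socs3* led with 38.4 ± 11.4 CPM per kb against 26.7 ± 3.16 for *Il6st*, with overlapping values, and *Osm* (2.25 ± 1.11) and *Il11* (2.17 ± 0.615) ranked between *Lif* (3.13 ± 0.290) and *Lifr* (1.56 ± 0.555), each overlapping its neighbours. With the length of all exons joined, *Osmr* was at 1.33 in untreated and 1.84 CPM per kb in treated tumours, so its place relative to *Clcf1* and *Lif* depends on the gene model, and the treated values of *Socs3* and *Il6st* no longer overlapped.

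**Figure D3:**
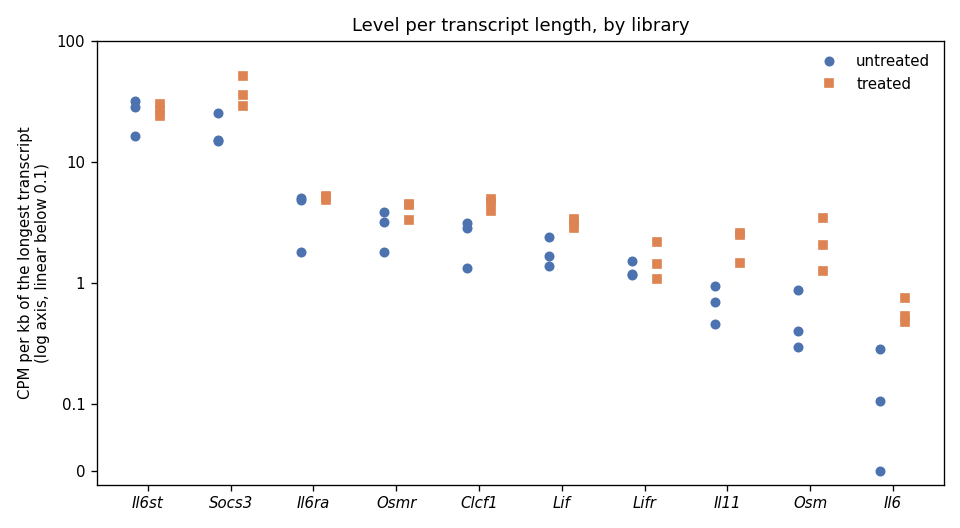
Level per kb of the longest transcript (CPM per kb, log axis that is linear below 0.1) in each untreated (blue circles) and treated (orange squares) tumour, genes ordered by their untreated mean. *Il6st* and *Socs3* lie above 14 CPM per kb in each library, and the remaining genes lie below 6.

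The make-up of the ligand pool was described the same way. Summed over the 5 ligands, the level was 5.84, 3.74 and 7.18 CPM per kb in untreated 1, 2 and 3 and 13.0, 10.8 and 14.2 CPM per kb in treated 1, 2 and 3. *Clcf1* held the largest share in 5 of the 6 libraries, 34.9% to 48.9% in those, and *Lif* held 37.0% in untreated 2, against 35.3% for *Clcf1*. The share of *Osm* was 6.84%, 7.87% and 12.03% in the untreated tumours and 15.8%, 11.7% and 24.3% in the treated ones, with treated 2 below untreated 3. The shared chain exceeded *Osmr* by 4.22 to 17.8 times and *Lifr* by 10.9 to 26.8 times per kb of the longest transcript over the 6 libraries. These ratios depend on the gene model, as *Osmr* has 5491 bases in its longest transcript and 12113 in all exons joined.

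The rest of the family was sparse. Of 13 further ligands and receptors, 3 were tested. *Il11ra1*, the receptor chain for interleukin 11, had 49.3, 153.3 and 40.1 CPM in the untreated tumours and 33.4, 33.9 and 19.4 CPM in the treated ones. Each treated value lay below the untreated ones, opposite to its ligand *Il11*, and untreated 2 was far above the rest. The log2 fold change was -1.48 ± 0.55 (SE, adjusted p 0.592 in edgeR), or -0.64 ± 0.24 without untreated 2. Its close copy *Il11ra2* had no count in any library, and reads could be split between such copies, so the value is uncertain. For *Ctf1*, cardiotrophin, the untreated mean was 7.02 ± 1.81 CPM and the treated 5.13 ± 1.03, and for *Cntf*, ciliary neurotrophic factor, 1.72 ± 0.350 and 2.18 ± 0.247 (SD, n = 3). *Cntfr*, a receptor chain for ciliary neurotrophic factor, was at 1.06 CPM or less in each library and was not tested.

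The kinases and transcription factors that carry the signal had 7 tested genes with a log2 fold change above 0 and 7 below, of 15 listed, with a median of -0.02 (-0.00103 over all tested genes). Without untreated 2 only 4 of the 14 were above 0 (50.2% of all tested genes), with a median of -0.20. Of the 14, 6 then lay apart in the lower direction and 2 in the higher, where 19.9% and 19.7% of all tested genes did. None of the 14 passed edgeR's test. With all libraries 0 had an unadjusted p under 0.05, against 3.32% of tested genes higher and 4.85% lower. The mean of *Stat3*, a gene picked with its values in view, was 103.8 ± 39.4 CPM without treatment and 116.9 ± 4.33 with it (SD, n = 3). Its log2 fold change of 0.17 turned to -0.11 without untreated 2, where the untreated mean was 125.8 CPM, and to -0.13 with GC and length offsets. The adaptor *Shc1* had 273.3 ± 39.9 and 209.4 ± 29.3 CPM, the adaptor *Grb2* 76.9 ± 20.01 and 94.0 ± 3.73, and the phosphatase *Ptpn11*, which binds gp130, 166.2 ± 53.2 and 200.1 ± 8.50 (SD, n = 3). Without untreated 2 the log2 fold change of *Grb2* was 0.08 in place of 0.29 and that of *Ptpn11* 0.02 in place of 0.27. Of the 18 inhibitors and shedding enzymes, 7 were higher and 11 lower, with a median log2 fold change of -0.03. *Ptprc* (CD45, a phosphatase of leukocytes) had 68.8 ± 36.8 CPM in untreated and 34.0 ± 8.37 in treated tumours, and *Pias3*, an inhibitor of STAT3, 157.1 ± 11.5 and 119.5 ± 17.6. *Socs7* had 42.7 ± 8.67 and 52.3 ± 4.75 CPM and *Ptpn1*, a phosphatase of JAK kinases, 70.5 ± 29.3 and 90.0 ± 2.74. Without untreated 2 the log2 fold change of *Ptprc* was -0.49 in place of -1.01, that of *Socs7* 0.13 in place of 0.29 and that of *Ptpn1* 0.04 in place of 0.35. The 6 other SOCS genes listed (*Socs1*, *Socs2* and *Socs4* to *Socs7*) had log2 fold changes between -0.04 and 0.29 (-0.15 to 0.38 without untreated 2), where *Socs3* had 1.07 (0.94), and the difference between them was not tested.

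Known STAT3 targets and acute phase genes had 19 tested genes above 0 (49.9% of all tested genes) and 8 below, of 30 listed. Their median log2 fold change was 0.21. Without untreated 2, 18 were above 0 (50.2%), with a median of 0.30. Of the 27 tested, 9 then lay apart in the higher direction and 1 in the lower, against 19.7% and 19.9%. With all libraries these numbers were 4 and 1, against 10.6% and 10.2%. In edgeR none was called over all genes. An unadjusted p under 0.05 was found for 5 of the 27 tested in the higher direction and 0 in the lower, against 3.32% and 4.85% of all tested genes. *Nfil3*, a transcription factor of the bZIP class, had 13.0, 9.37 and 17.2 CPM in the untreated tumours and 27.4, 26.0 and 29.8 CPM in the treated ones. *Ier3*, an early response gene that affects cell survival, had 9.08, 16.7 and 24.2 CPM against 40.8, 36.5 and 65.0 CPM. In both the groups lay apart, as in 10.6% of tested genes in that direction. The log2 fold changes were 1.06 ± 0.27 and 1.51 ± 0.40 (SE, adjusted p 0.592 in edgeR for both). Without untreated 2 DESeq2 called both, at an adjusted p of 0.0246 and 0.0152, among 116 genes called higher (0.927% of tested genes). *Cebpd* (21.0 ± 11.3 CPM in untreated, 11.03 ± 2.62 in treated tumours) and *Fgl2* (20.3 ± 13.6 and 11.3 ± 2.68) lay in the other direction, both highest in untreated 2, without which their log2 fold changes were -0.42 in place of -0.91 and -0.15 in place of -0.83.

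Genes known to induce the ligands had 9 tested genes above 0 (49.9% of all tested genes) and 2 below, of 13 listed. Their median log2 fold change was 0.64, or 0.27 without untreated 2, where 8 were above 0 (50.2%). *Csf3* and *Il1a* are in these counts and medians, and both passed the filter only through the treated group. *Il1b*, interleukin 1 beta, had 4.39, 13.2 and 20.5 CPM in the untreated tumours and 39.7, 18.4 and 46.3 CPM in the treated ones. Treated 2 lay below untreated 3, and the log2 fold change was 1.45 ± 0.57 (SE, adjusted p 0.592 in edgeR). *Nfkbiz*, a co-factor of NF-kB that acts on the *Il6* gene, had 27.6 ± 7.67 CPM in untreated and 45.1 ± 8.86 in treated tumours. *Il1r1* (144.4 ± 50.0 and 115.9 ± 6.93 CPM) and *Tnfrsf1b* (26.5 ± 21.4 and 26.4 ± 5.91 CPM) had log2 fold changes of -0.32 and -0.02, which were -0.02 and -0.50 without untreated 2.

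**Figure D4:**
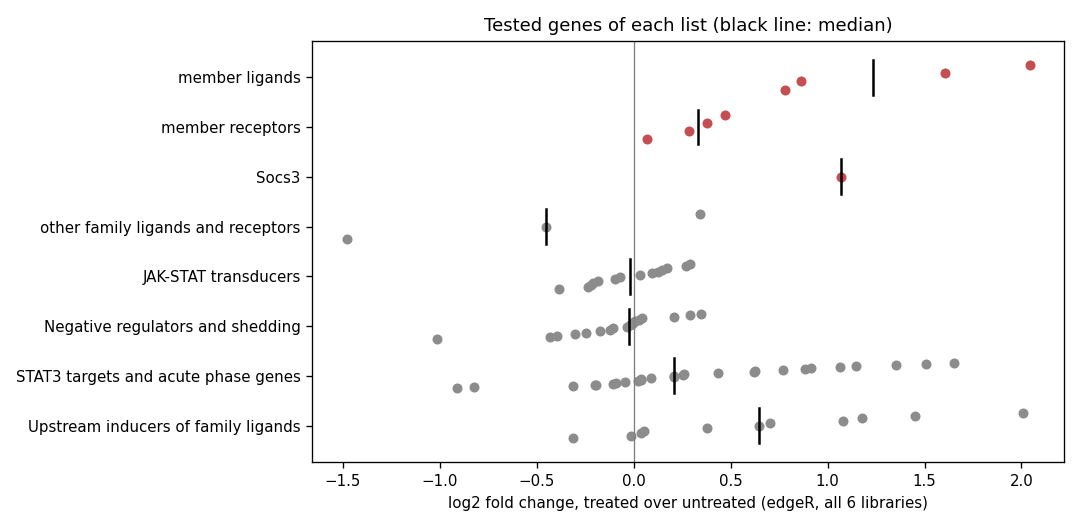
Log2 fold change of treated over untreated tumours (horizontal axis, edgeR, all 6 libraries) for each tested gene of the family (red) and of the related lists (grey), 1 point per gene, with the median as a black line. The 4 tested ligands lie between 0.78 and 2.04, and the signal carriers lie around 0 with a median of -0.02.

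Of the summed markers of other cell types, only those of mast cells and dendritic cells lay apart between the groups, both lower in treated tumours. The 8 neutrophil markers in the tables summed to 13.6, 20.1 and 47.0 CPM in untreated tumours 1, 2 and 3, while treated tumours 1, 2 and 3 had 85.5, 36.5 and 81.9 CPM. All 5 tested ones had a log2 fold change above 0 (49.9% of all tested genes), though *Mmp8* passed the filter only through the treated group. The defining granule genes *Camp* and *Ngp* were at 0 to 0.446 CPM. In these sums treated 2 lay below untreated 3, so the groups overlapped. Of the 5 tested markers only *Cxcr2* lay apart, as 10.6% of tested genes did in that direction. Untreated 3 was the highest untreated tumour and treated 2 the lowest treated one for both *Osm* and the sums. The sums were highest in treated 1 and *Osm* in treated 3. The 10 macrophage and monocyte markers summed to 1282 to 2799 CPM in untreated and 687 to 1347 CPM in treated tumours, with 9 lower and 1 higher. Taken singly, 6 of the 10 lay apart in the lower direction and 0 in the higher, where 10.2% and 10.6% of tested genes did. Without untreated 2 the numbers were again 6 and 0, against 19.9% and 19.7%. In edgeR 6 had an unadjusted p under 0.05, all lower (4.85% of tested genes). Mast cell markers summed to 27.8 to 65.4 against 12.9 to 19.3 CPM, all 5 tested ones lower. The keratinocyte markers summed to 1149 and 584.9 CPM in untreated 1 and 2 and to 4.76 to 59.4 CPM in the other 4 libraries. Fibroblast markers summed to 24834 to 29918 CPM in untreated and 23127 to 28301 in treated tumours. The summed levels of neutrophil, macrophage and monocyte, keratinocyte and fibroblast markers overlapped between the groups. So did those of endothelial, adipocyte, skeletal muscle, T and NK cell and B cell markers. Dendritic cell markers summed to lower levels in treated tumours (8.05 to 10.5 against 11.5 to 12.9 CPM). Of these 5 markers 2 were tested, *Zbtb46* and *Ccr7*, and both overlapped between the groups. Only *Flt3* lay apart, which was at 2.68 CPM or less in each library and was not tested. *Cd3e* and *Ms4a1*, defining markers of T and B cells, had no count. The part of these cells in the ligand values was not tested. In RNA from whole tumours, fewer cells of a type and less RNA per cell cannot be told apart.

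**Figure D5:**
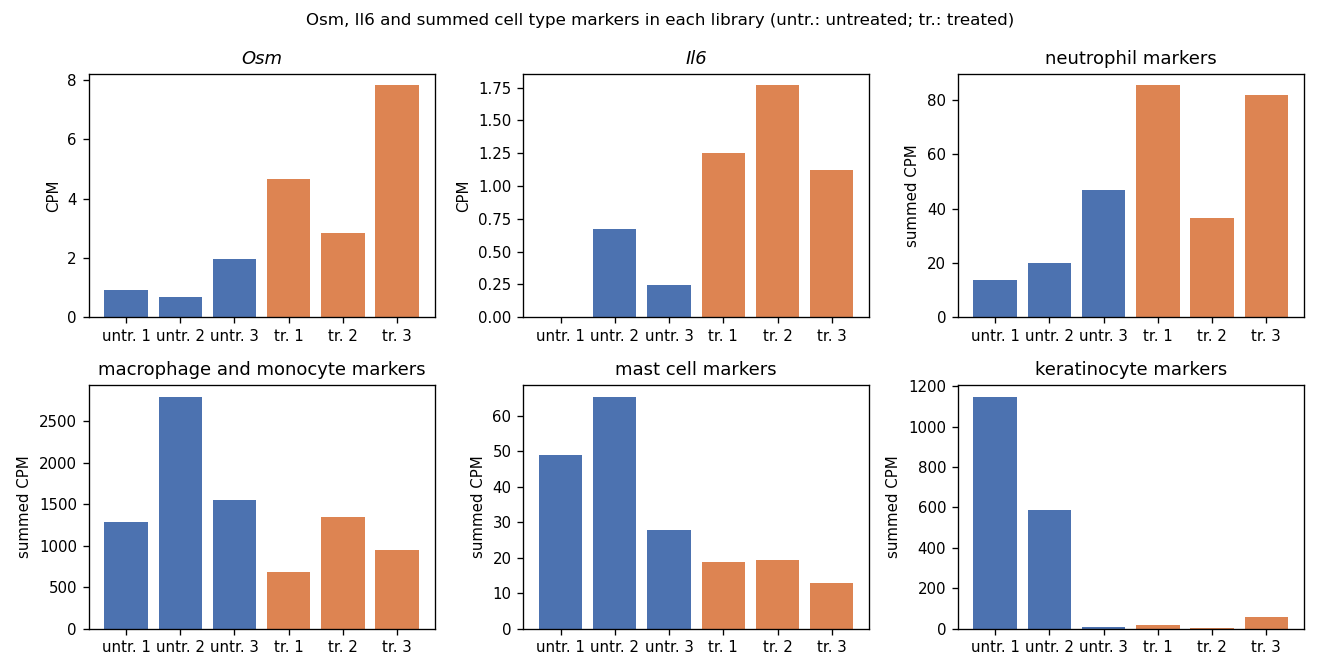
*Osm* and *Il6* in CPM and the summed CPM of 4 lists of cell type markers (vertical axes from 0) in each untreated (blue) and treated (orange) tumour. *Osm* and the neutrophil markers are highest in treated 1 and 3, and the macrophage and mast cell markers are highest in untreated 2.

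The genes whose profile over the 6 libraries lay nearest to that of a family member were taken by the mean absolute difference of log2 CPM, each centred on its own mean, among 11672 named protein-coding genes. For *Osm* they were *Gprc5a* (0.18), *Itgb7* (0.18) and *Wnt5a* (0.23), where the median gene stood at 0.93. *Itgb7*, an integrin chain of leukocytes, had 31.8, 19.4 and 43.3 CPM in the untreated tumours and 88.0, 65.2 and 123.8 CPM in the treated ones. For *Socs3* they were *Grb10* (0.11), *Armcx2* (0.11) and *Gipr* (0.12), with a median gene at 0.60, and for *Osmr* *Gja5* (0.13) and *Igfbp7* (0.13), with a median gene at 0.47. These profiles share the libraries, their depth and the shift in untreated 2.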

How the data were processed

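RNA was extracted with Trizol from 6 tumours and made into strand-keeping libraries, per the labels' protocols. Each library has a table of gene symbols with raw counts, used as the authors deposited them. The tools include TopHat and the build mm10, per the submitters' processing notes. How reads were assigned to genes (program, strand, annotation) is not given in the sources used here. Groups were taken from the sample titles.

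Genes were kept with filterByExpr (smallest count 10) in edgeR 4.0.16 (R 4.3.3), scaled with TMM, and compared with the quasi-likelihood test over all 12517 kept genes, 2-sided, with Benjamini-Hochberg adjustment and a threshold of 0.05. The SE is the size of the log2 fold change divided by the root of F. CPM are 1000000 times the count over the TMM library size, and a log2 CPM has a prior count of 2. Totals of 4680295 to 8019294 counts per library leave genes of few reads with a wide counting error. No 2 libraries agreed within sampling noise (chi-square per gene 5.64 or more). Lengths, GC content and positions come from GENCODE M21, on mm10, and start-site windows from RefSeq. Of the symbols, 22148 matched by name and 649 by a synonym.

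The members, gene lists, motifs and tests were chosen with earlier results of these data known. All 10 members are named. Of each related list, 2 genes are named by lowest unadjusted p, with at most 2 more that lie on the opposite side, and others are said to be named after their values were seen. The 3 nearest profiles were taken for *Osm*, *Osmr* and *Socs3*. Some genes that these rules name are not reported here. The fits were tested on simulated data. Alternatives were DESeq2 1.42.0 and its size factors, the upper quartile, limma-voom (limma 3.58.1), no filter, a mean of at least 5 CPM, GC and length offsets (loess, span 0.3), leaving out each library, and the replicate number as a block. DESeq2 and the offsets without untreated 2 were added after seeing the data.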

Additional observations from a re-analysis of the deposited data

How the results depend on the processing

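EdgeR called 0 genes in each fit listed except the one with GC and length offsets without untreated 2, which called 1, against 57 with DESeq2 and 278 with DESeq2 without untreated 2. Genes with an unadjusted p under 0.05 numbered 1023 with all libraries and 285 to 2342 when 1 library was left out. Family genes called numbered 0 in each fit except DESeq2 without untreated 2, which called 1 (*Socs3*). The fold changes of the 9 tested members kept their direction in 144 of 151 refits. These refits share libraries and are not independent, so the count does not measure how well the directions would repeat. It includes 16 refits each of *Osm* and *Il11*, which passed the filter only through the treated group. With 1 library left out, *Lifr* ranged from -0.030 (without treated 3) to 0.49 (without treated 1). *Il6st* likewise ranged from -0.18 (without untreated 2, in edgeR and DESeq2) to 0.26 (without untreated 1), and was at -0.021 without treated 2, -0.078 with GC and length offsets, -0.083 when these joined the replicate block, and -0.086 with them and without untreated 2. Leaving out 1 library moved *Osm* between 1.59 and 2.65 and *Socs3* between 0.81 and 1.37.

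Among the 18 genes of the related lists named by the rule, 294 of 305 refits kept the direction, again with shared libraries. *Stat3*, outside that count, turned from 0.17 to -0.11 without untreated 2 and to -0.13 with GC and length offsets. With GC and length offsets *Ptpn11* was at -0.037 and *Socs7* at -0.25, and with the replicate block as well at -0.034 and -0.17. *Il1r1* was at 0.028 with these offsets and without untreated 2. *Tnfrsf1b* was at 0.34 with limma-voom, -0.50 without untreated 2, 0.72 without untreated 3, 0.12 without treated 1, 0.015 without treated 3, 0.32 with the replicate block and 0.13 with block and offsets. The causes were not tested.

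The replicate numbers are shared between groups, and whether they pair the samples is not known. Deviations from the group mean correlated at -0.18, -0.11 and 0.09 for numbers 1, 2 and 3. Between unlike numbers they correlated at -0.22 to 0.24. With 3 libraries in each group these values cannot exclude pairing. With the replicate block edgeR called 0 genes, 989 had an unadjusted p under 0.05, and *Osm* and *Socs3* had an adjusted p of 0.578. The stricter filter left no value for *Osm* and *Il11*. At this depth the level of *Il6* rests on 13 reads or fewer per library.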
